A study of Mus musculus with 12 samples.

Results

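Glucuronidation genes were followed in spheroids of primary mouse hepatocytes over 2 weeks of culture. They were the measured genes with a symbol starting Ugt1a, Ugt2a, Ugt2b or Ugt3a, together with Ugdh and Ugp2. The rule found 11 of the 11861 genes in the expression table: Ugt2a3, the 7 genes Ugt2b1, Ugt2b5, Ugt2b34, Ugt2b35, Ugt2b36, Ugt2b37 and Ugt2b38, Ugt3a2, Ugdh and Ugp2. The 9 UGT1A genes of the mouse gene list, and Ugt2a1, Ugt2a2 and Ugt3a1, were not analysed here.

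UDP-glucuronosyltransferases (UGTs) are membrane enzymes of the endoplasmic reticulum that attach glucuronic acid to drugs, steroids, bilirubin and bile acids, so that these become water-soluble and can leave in bile or urine. The sugar is donated by UDP-glucuronic acid, which is made in the cytosol: Ugp2 joins glucose 1-phosphate to UTP to give UDP-glucose, and Ugdh oxidizes UDP-glucose to UDP-glucuronic acid. The liver is the main site of glucuronidation, and the UGT2B family is known there for steroids and many drugs.

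RNA was read on 12 expression arrays. The groups were male preparations at days 1, 7 and 14 and female preparations at days 1, 7 and 14 after spheroid formation, with 2 arrays in each of the 6 groups. Every preparation was a frozen pool of hepatocytes from 3 C57BL/6 mice (age and allele were not labelled), the cells aggregated by themselves in low-attachment wells, and no drug or other agent was labelled for any group. The same 4 preparations, 2 male and 2 female, were sampled at each day. A value is a log2 level, so that a difference of 1 is a doubling of the signal, and levels of different genes cannot be set against each other.

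All 7 hepatocyte markers, among them Alb and Hnf4a, had day means above 4.79, the level that every probe set in the table reached on at least 1 array. Of these markers 0 passed in limma's test between day 14 and day 1, and 1 had an unadjusted p under 0.05. Hnf4a was lower at day 14 in all 4 preparations with no overlap (changes from -0.19 to -0.09). Cps1 was also lower in all 4 (-0.26 to -0.0038), and Ttr was higher in all 4 (0.02 to 0.12). Alb lay between 12.71 and 12.78 at day 14, near 12.84, the highest value in the table. The mean level of the 7 markers per array lay between 11.6 and 11.8 at day 14 and between 11.6 and 11.8 at day 1. Of the markers of other cells some passed, where 7.59% of all genes were higher at day 14 than at day 1 and 6.8% lower. Of 8 stellate cell and fibroblast markers 5 fell, and the list's mean level per array lay between 4.48 and 7.02 at day 14 and between 7.30 and 7.58 at day 1. Of 5 measured endothelial markers (8 listed) 3 fell, with mean levels from 3.61 to 5.14 at day 14 and from 5.04 to 6.18 at day 1. Of 7 Kupffer cell markers (9 listed) 1 rose, near the 14.4% of all genes that passed in either direction. The median change of these 7 was nevertheless 1.03, against 0.01 over all genes, and 4 of them had day 1 means under 4.79. Their mean level per array lay between 5.01 and 6.96 at day 14 and between 4.05 and 5.29 at day 1. Of 4 cholangiocyte markers (5 listed) 2 rose, and the list's mean level per array lay between 7.02 and 7.53 at day 14 and between 6.59 and 6.90 at day 1. These 2, Krt19 and Epcam, lay under 4.79 on every day 1 array. Later arrays alone thus brought them into the table, which favours their rise. Krt7 and Sox9 did not pass and stood lower at day 14 in all 4 preparations, with changes from -0.88 to -0.36 and from -0.45 to -0.12. Of 4 intestinal epithelium markers (5 listed), some of which liver cells also express, 2 rose, with 5.96 to 6.55 at day 14 and 5.50 to 5.87 at day 1. Pecam1, Cdh5, Kdr, Clec4g, Lrat, Des, Clec4f, Adgre1 and Epcam had day 14 means under 4.79. The part these cell types have in the results on glucuronidation genes was not tested, and fewer cells of a type cannot be told apart from less RNA per cell.

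Between day 14 and day 1 the glucuronidation genes went both ways. Ugt2b34 and Ugt2b35 rose, while Ugdh, Ugt2a3, Ugt2b1 and Ugt2b37 fell, and Ugp2, Ugt2b36, Ugt2b5, Ugt2b38 and Ugt3a2 did not pass (limma, with a Benjamini-Hochberg adjusted p under 0.05 over all genes). The count was 2 of 11 higher and 4 of 11 lower, where 7.59% of all genes were higher and 6.8% lower, or 14.4% in either direction. The median change of the 11 genes was 0.11, against 0.01 over all genes, and the median size regardless of sign was 0.36, against 0.13. Ugt2b37 was in the table only through its 2 male arrays of day 1, so a fall was built into its selection. Without it the count was 2 higher and 3 lower of 10, with a median size of 0.35.

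**Figure D1:**
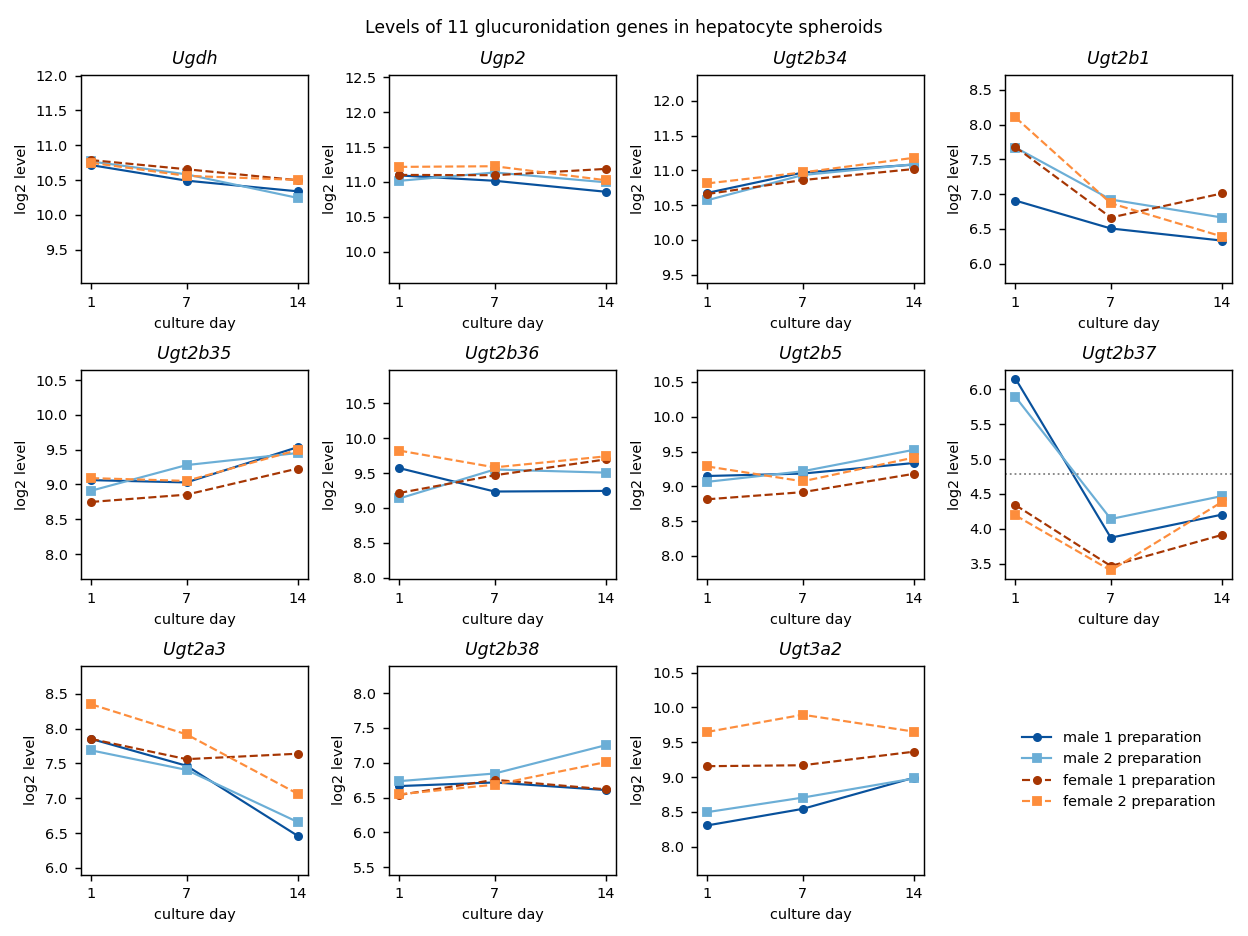
Log2 level (vertical axis, 3 log2 units in every panel) of each of the 11 genes by culture day (horizontal axis), with 1 line for each of the 2 male (blue, solid) and 2 female (orange, dashed) preparations. The dotted line in the Ugt2b37 panel is 4.79, the lowest maximum of any probe set in the table, and only the 2 male day 1 points lie above it.

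Of the enzymes that supply the donor sugar, Ugdh fell and Ugp2 did not pass. Ugdh stood at 10.72 and 10.77 in male preparations 1 and 2 and at 10.79 and 10.75 in female preparations 1 and 2 at day 1. At day 7 the values were 10.49 and 10.58 in males and 10.66 and 10.56 in females, and at day 14 they were 10.34 and 10.24 in males and 10.50 and 10.50 in females. Every day 14 array lay below every day 1 array, as held for Ugdh and Ugt2a3 (2 of 11) and for 7.57% of all genes. Ugdh fell by 0.36 on the log2 scale between day 14 and day 1 (SE 0.056, adjusted p = 0.00463), which is 1.28-fold lower, with changes per preparation from -0.52 to -0.25. It stood at -0.18 ± 0.056 in day 7 against day 1 (adjusted p = 0.117) and at -0.18 ± 0.056 in day 14 against day 7 (adjusted p = 0.207).

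Ugp2, one step earlier, averaged 11.11 ± 0.083 (SD, n = 4) on the first day, then 11.12 ± 0.087 after 7 days and 11.02 ± 0.135 after 14 days of culture. Its values lay between 10.86 and 11.19 at day 14 and between 11.01 and 11.21 at day 1, and the days overlapped. The difference between day 14 and day 1 was -0.09 ± 0.071 (adjusted p = 0.461), and 3 of 4 preparations were lower. Ugp2 also provides UDP-glucose for glycogen, and its probe set had the smallest range over the 12 arrays of all 11 genes, at 0.37.

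Other genes of UDP-sugar supply and use, which include the phosphoglucomutases, liver glycogen synthase and Slc35d1, the transporter that brings UDP-glucuronic acid into the endoplasmic reticulum, gave 0 of 10 past limma's test (12 listed) between day 14 and day 1, with 0 at an unadjusted p under 0.05. Their median change at day 14 was 0.01. Slc35d1 stood at -0.09 ± 0.058 (adjusted p = 0.383). Of 8 genes of glucuronate breakdown and ascorbate synthesis 1 rose and 1 fell, where 7.59% of all genes were higher and 6.8% lower. Dcxr, a xylulose reductase further down the glucuronate pathway, rose by 0.49 ± 0.067 (adjusted p = 0.00247) and also at day 7 by 0.43 ± 0.067 (adjusted p = 0.0123). Gusb, the lysosomal glucuronidase that takes the sugar off again, fell by 0.27 (SE 0.073, adjusted p = 0.0388, or 0.0564 in the blocked fit).

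The 8 measured UGT2 genes lie side by side on chromosome 5, in the order Ugt2b34, Ugt2b1, Ugt2b35, Ugt2b36, Ugt2b5, Ugt2b37, Ugt2a3 and Ugt2b38, followed by Ugt2a1 and Ugt2a2. The mouse gene list places no other protein-coding gene among these 10. Along the cluster the changes in day 14 against day 1 were 0.41, -0.99, 0.48, 0.11, 0.28, -0.90, -0.98 and 0.25, so genes that rose and genes that fell were direct neighbours. The copies resemble one another closely and probe sequences were not analysed here, so a probe set of one UGT2B gene may also read another.

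Ugt2b34 lies at the cluster's edge and was one of the genes that rose. At day 1 it stood at 10.68 and 10.57 in male preparations 1 and 2 and at 10.66 and 10.81 in female preparations 1 and 2. At day 7 it stood at 10.97 and 10.93 in males and 10.86 and 10.97 in females, and at day 14 at 11.08 and 11.09 in males and 11.02 and 11.18 in females. Day 14 lay above day 7 and day 7 above day 1 with no overlap, and all 4 preparations were higher at the end of each week than at its start. Ugt2b34 rose by 0.41 ± 0.067 between day 14 and day 1 (adjusted p = 0.00525), a fold of 1.33. In day 7 against day 1 it stood at 0.25 ± 0.067 (adjusted p = 0.0728). Between day 7 and day 1, 3 of 11 genes did not overlap, Ugt2b34 higher and Ugdh and Ugt2b37 lower, against 10.4% of all genes. Ugt2b37 was in the table only through its male day 1 arrays, which favours its place in this count, and without it Ugt2b34 and Ugdh remain. Between day 14 and day 7 only Ugt2b34 did not overlap, 1 of 11, against 5.21%.

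Ugt2b35 stood at 9.06 and 8.91 in males and 8.75 and 9.09 in females at day 1, and at 9.03 and 9.28 in males and 8.85 and 9.05 in females at day 7. At day 14 it stood at 9.54 and 9.45 in males and 9.23 and 9.50 in females, all above every day 1 array. It rose by 0.48 ± 0.11 between day 14 and day 1 (adjusted p = 0.0212), or 1.39-fold, with 0.10 ± 0.11 in the first week (adjusted p = 0.685) and 0.37 ± 0.11 in the second (adjusted p = 0.172). With Ugt2b34 it made 2 of 11 genes that stood higher without overlap, against 8.25% of all genes. In either direction 4 of 11 did, against 15.8%.

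Ugt2a3, of a subfamily whose human member is known to act on bile acids, was lower at day 14 in every preparation. It stood at 7.85 and 7.69 in males and 7.85 and 8.35 in females at day 1, at 7.47 and 7.41 in males and 7.56 and 7.92 in females at day 7, and at 6.46 and 6.66 in males and 7.64 and 7.06 in females at day 14. Female preparation 1 was the highest array at day 14, yet all 4 lay below every day 1 array. The change was -0.98 ± 0.16 (adjusted p = 0.00517), or 1.97-fold lower, and the changes were -1.39 and -1.03 in males and -0.21 and -1.29 in females.

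Ugt2b1, whose rat counterpart is known to conjugate bisphenol A, stood at 6.91 and 7.67 in males and 7.68 and 8.10 in females at day 1. At day 7 it stood at 6.51 and 6.92 in males and 6.66 and 6.87 in females, and at day 14 at 6.33 and 6.66 in males and 7.01 and 6.39 in females. Every preparation was lower at day 14 than at day 1, but the days overlapped, with male preparation 1 the lowest array of day 1. The change was -0.99 ± 0.21 (adjusted p = 0.0169), or 1.98-fold lower. In day 7 against day 1 it stood at -0.85 ± 0.21 (adjusted p = 0.0628, or 0.0448 once preparation was a block).

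Ugt2b37 had its highest values in males at day 1. On that day it stood at 6.16 and 5.89 in male preparations 1 and 2 and at 4.34 and 4.19 in female preparations 1 and 2. At day 7 it stood at 3.87 and 4.14 in males and 3.46 and 3.40 in females, and at day 14 at 4.20 and 4.47 in males and 3.91 and 4.39 in females. The male arrays of day 1 were thus the only 2 of 12 at or above 4.79. Between day 7 and day 1 the change was -1.43 ± 0.13 (adjusted p = 0.00223), with -2.28 and -1.75 in males and -0.87 and -0.79 in females. Between day 14 and day 1 it was -0.90 ± 0.13 (adjusted p = 0.00265), with -1.95 and -1.42 in males and -0.43 and 0.19 in females. The selection noted above favours both of these falls.

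In the first week Ugt2b37 was the only 1 of the 11 genes that passed, where 1.98% of all genes were lower and 2.74% higher, or 4.72% in either direction. Without Ugt2b37, whose fall its selection favours, 0 of 10 passed and 3 of 10 had an unadjusted p under 0.05, among 2315 of all 11861 genes. With the preparation as a block Ugt2b1 also passed, which made 2 lower. In the second week 0 of 11 passed with limma, with or without the block, although 6 of 11 had an unadjusted p under 0.05, among 1626 of all 11861 genes. Without Ugt2b37, which lay under 4.79 on every array of both days, it was 5 of 10. The background of calls in the second week was 0.489%. All 3 day comparisons share arrays with one another and are not independent.

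**Figure D2:**
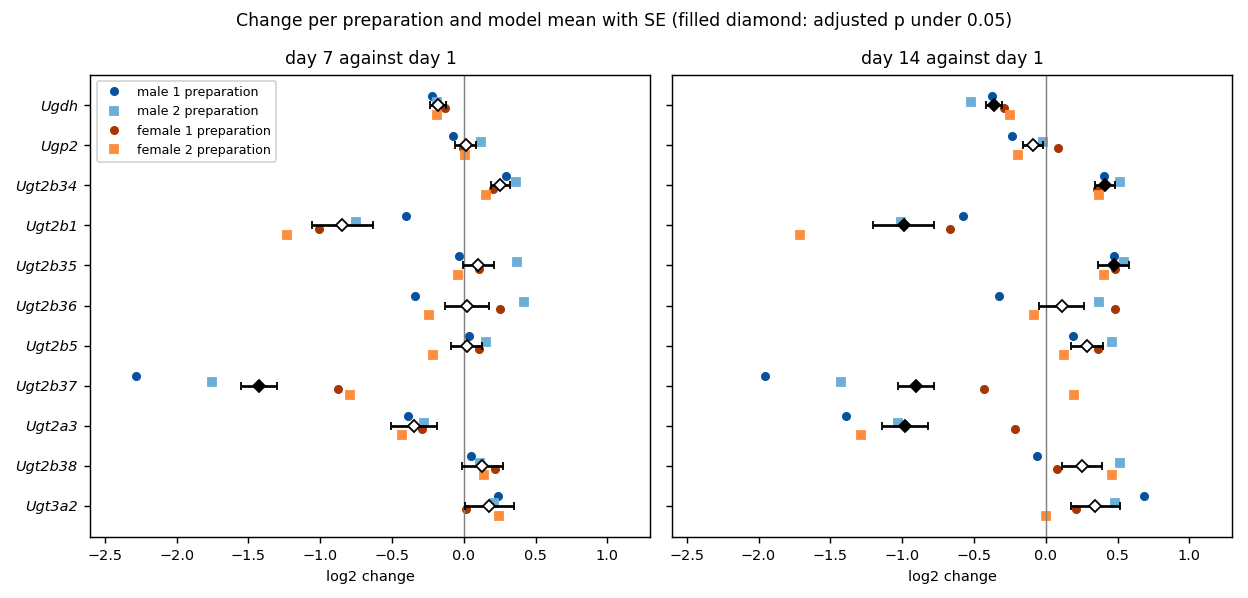
Log2 change (horizontal axis) of each gene (rows) in day 7 against day 1 (left) and day 14 against day 1 (right), with a point for each of 4 preparations and a diamond for the model mean with its SE, filled where adjusted p was under 0.05. At day 14 Ugt2b34 and Ugt2b35 have all 4 points right of 0, and Ugdh, Ugt2b1 and Ugt2a3 all 4 left of it, while Ugt2b37 has 3 left of it.

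Each of the 6 calls at day 14 was lost without at least 1 preparation. Without any 1 preparation Ugdh (adjusted p from 0.0557 to 0.0903) and Ugt2b35 (0.0555 to 0.151) did not pass, although the changes ran only from -0.40 to -0.32 and from 0.46 to 0.49. Ugt2a3 lost its call without male 1 (0.108) or male 2 (0.0651), Ugt2b34 without male 1 (0.0795) or male 2 (0.0986), Ugt2b1 without male 1 (0.058), male 2 (0.0892) or female 2 (0.157), and Ugt2b37 without male 1 (0.0572 at day 14 and 0.0539 at day 7).

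The other UGT genes did not pass between day 14 and day 1. Ugt2b5 had values from 9.18 to 9.52 at day 14 and from 8.81 to 9.29 at day 1, with 0.28 ± 0.11 (adjusted p = 0.13, or 0.0463 with a trended and robust spread) and 4 of 4 preparations higher. Ugt2b36 lay between 9.24 and 9.74 at day 14 and between 9.14 and 9.82 at day 1, with 0.11 ± 0.16 (adjusted p = 0.702) and 2 of 4 higher. Ugt2b38 lay between 6.61 and 7.25 at day 14 and between 6.54 and 6.74 at day 1, with 0.25 ± 0.14 (adjusted p = 0.287) and 3 of 4 higher. In each of these genes the days overlapped.

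The start regions of Ugt2b37, Ugt2b38 and Ugt2b5 are shown because these genes of the cluster are nearly alike there, and so that the copies can be compared. Ugt2a3 lies between Ugt2b37 and Ugt2b38. The windows are RefSeq's on GRCm38.p6, from 250 bases before to 50 after the annotated start, 5′ to 3′ on the minus strand, and capitals mark the longest unbroken run of bases that all of them hold.
Ugt2b37 (chr5:87254739-87255038): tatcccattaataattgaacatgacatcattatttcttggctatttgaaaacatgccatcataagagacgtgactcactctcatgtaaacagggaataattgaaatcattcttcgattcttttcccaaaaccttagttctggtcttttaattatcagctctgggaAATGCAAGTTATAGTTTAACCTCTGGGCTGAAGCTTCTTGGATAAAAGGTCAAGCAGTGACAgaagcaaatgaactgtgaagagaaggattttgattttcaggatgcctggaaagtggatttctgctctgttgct
Ugt2b38 (chr5:87424154-87424453): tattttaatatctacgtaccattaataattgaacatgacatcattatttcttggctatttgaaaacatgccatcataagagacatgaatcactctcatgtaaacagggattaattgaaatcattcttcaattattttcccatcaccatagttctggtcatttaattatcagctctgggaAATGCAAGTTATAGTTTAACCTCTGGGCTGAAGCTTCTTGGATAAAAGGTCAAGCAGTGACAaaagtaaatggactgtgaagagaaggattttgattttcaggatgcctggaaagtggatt
Ugt2b5 (chr5:87140291-87140590): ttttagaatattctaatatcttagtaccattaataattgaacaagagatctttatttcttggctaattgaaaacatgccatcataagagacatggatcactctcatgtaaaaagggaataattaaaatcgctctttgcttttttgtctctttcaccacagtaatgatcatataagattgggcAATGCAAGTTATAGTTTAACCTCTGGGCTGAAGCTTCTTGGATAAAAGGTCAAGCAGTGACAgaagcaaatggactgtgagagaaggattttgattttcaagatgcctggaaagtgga

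In pairwise global alignments Ugt2b37 and Ugt2b38 were identical at 274 of 286 aligned bases (95.8%), Ugt2b5 and Ugt2b38 at 261 of 290 (90%), and Ugt2b5 and Ugt2b37 at 246 of 276 (89.1%). The next most alike pair of the cluster, Ugt2b36 and Ugt2b37, reached 73.0%. Ugt2b37, Ugt2b38 and Ugt2b5 shared the run of 62 bases in capitals, which begins 85 bases before the start in Ugt2b37, 71 in Ugt2b38 and 68 in Ugt2b5. In day 7 against day 1 Ugt2b37 stood at -1.43, Ugt2b38 at 0.13 ± 0.14 (adjusted p = 0.686) and Ugt2b5 at 0.02 ± 0.11 (adjusted p = 0.952), and the differences between these changes were not tested. Ugt2b37 was in the table only through its male day 1 arrays, which favours its fall, whereas Ugt2b38 and Ugt2b5 reached 4.79 on all 12 arrays.

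Short elements were searched for in the windows of the 10 members that have one, on both strands. GCGTG, the core that the aryl hydrocarbon receptor (AhR) binds, occurred in Ugdh and Ugp2 (32.4% of all windows), TGACNNNGC, the core of antioxidant response elements, in Ugdh (12.4%, in 1 place overlapping GCGTG), and TTCNNNGAA, a STAT5 type site, in 0 of 10 (8.3%). A match is a description of letters and not of binding.

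Between the sexes, Ugt2b37 was higher in males at day 1, and Ugt3a2 had its lower values in males at every day without passing. At day 1 Ugt2b37 averaged 6.02 in males and 4.27 in females (n = 2 each), and male minus female was 1.76 ± 0.18 (limma, adjusted p = 0.00445). The difference was 0.57 ± 0.18 at day 7 (adjusted p = 0.234) and 0.19 ± 0.18 at day 14 (adjusted p = 0.716). Ugt2b37 was the only 1 of 11 genes to pass at day 1, where 0.346% of all genes stood higher and 0.422% lower in males (0.767% in either direction), and 0 of 11 passed at days 7 and 14 (backgrounds of 0.354% and 1.06%), with an unadjusted p under 0.05 in 2 of 11 at each of these days, as in 1570 of all 11861 genes at day 7 and 1762 at day 14. Without Ugt2b37, which lay under 4.79 on every day 7 array, it was 1 of 10 at day 7 and 2 of 10 at day 14. The male day 1 arrays also brought Ugt2b37 into the table, so its difference at day 1 was favoured by the selection. It did not pass without any 1 preparation (adjusted p from 0.0506 to 0.169), and without female 1 the day 14 value was -0.05.

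**Figure D3:**
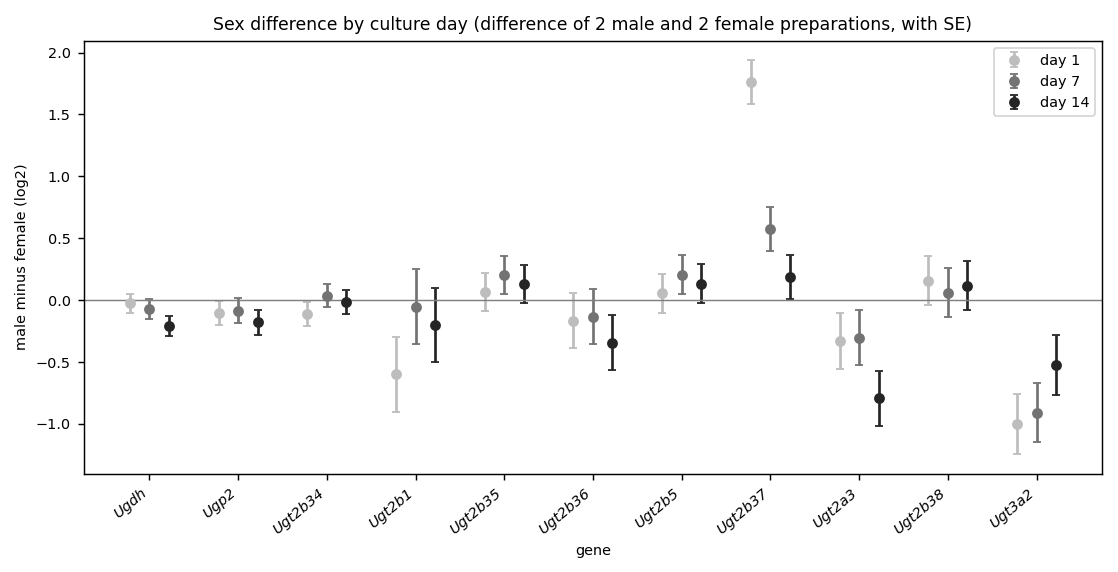
Male minus female difference in log2 level (vertical axis) at days 1, 7 and 14 (light to dark) for each gene, with the SE of the model over 2 male and 2 female preparations. Ugt2b37 is at 1.76, 0.57 and 0.19, Ugt3a2 at -1.001, -0.91 and -0.52, and the other genes lie between -0.79 and 0.21.

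The change of Ugt2b37 in males minus that in females was -1.57 ± 0.25 between day 14 and day 1 (adjusted p = 0.228, unadjusted p = 0.000185) and -1.19 ± 0.25 between day 7 and day 1 (adjusted p = 0.79). These values carry the same selection as above, since only the male day 1 arrays brought the gene into the table and the other 10 lie under 4.79. They therefore show neither a sex difference in the change nor its absence. No gene of the whole table passed for a sex difference in a change with limma (0 of 11861, with an unadjusted p under 0.05 in 815 for day 14 and 565 for day 7), so a background of 0% applies. Over all days, with the 3 arrays of a preparation averaged first, male minus female was 0.84 ± 0.071 (adjusted p = 0.0534, or 0.00467 with a random block for preparation), which the same selection favours. The random block used a single correlation within a preparation for all genes, 0.038. It thus treated the 3 arrays of a preparation as nearly independent, and its p-values for sex are likely too small.

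The UGT3A enzymes are a separate family, and human UGT3A2 is known to use UDP-xylose and UDP-glucose rather than UDP-glucuronic acid. Mouse Ugt3a2 stood at 8.31 and 8.50 in males and 9.16 and 9.65 in females at day 1, at 8.54 and 8.70 in males and 9.17 and 9.89 in females at day 7, and at 8.99 and 8.98 in males and 9.36 and 9.65 in females at day 14. The sexes did not overlap at any of the 3 days, which held, with males lower, for 1 of 11 genes and 5.5% of all genes. With males higher it held for 0 of 11 and 5.81%. Male minus female was -1.001 ± 0.24 at day 1 (adjusted p = 0.124), -0.91 ± 0.24 at day 7 (adjusted p = 0.178) and -0.52 ± 0.24 at day 14 (adjusted p = 0.361). Over all days it was -0.81 ± 0.18 (adjusted p = 0.132, or 0.0131 with the random block). That block treated the arrays of a preparation as nearly independent, so the smaller p-value does not rest on preparations as replicates. Females were themselves apart, with means over the 3 days of 9.23 and 9.73, against 8.61 and 8.73 in males.

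Ugt3a2 stood higher by 0.69 and 0.48 in males and by 0.21 and 0.0042 in females between day 14 and day 1. The mean change was 0.35 ± 0.17 (adjusted p = 0.226, or 0.0432 in the blocked fit). The change in males minus that in females was 0.48 ± 0.34 (adjusted p = 0.91).

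Over all days 0 of 11 genes passed between the sexes in limma's test of 2 male against 2 female preparations, where 0.177% of all genes passed. An unadjusted p under 0.05 was found in 3 of 11, as in 2344 of all 11861 genes. Without Ugt2b37, whose difference its selection favours, it was 2 of 10, Ugt3a2 and Ugt2a3. Ugt2a3 stood at -0.48 ± 0.065 (adjusted p = 0.0798). Means over the 3 days were 7.26 and 7.25 in males and 7.68 and 7.78 in females. Differences of the remaining 8 genes lay between -0.28 (Ugt2b1) and 0.13 (Ugt2b35). Stellate markers stood at a mean level of 5.01 in males and 6.81 in females at day 14, and endothelial markers at 3.80 in males and 4.96 in females. Hepatocyte markers stood at 11.64 in males and 11.78 in females, and 0 genes of any marker list passed over all days in limma's test, where 4 of 8 stellate, 1 of 5 endothelial and 2 of 7 hepatocyte markers had an unadjusted p under 0.05, as had 2344 of all 11861 genes. At day 14 alone 0 of these markers passed in that test. There 6 of 8 stellate, 2 of 5 endothelial and 1 of 7 hepatocyte markers had an unadjusted p under 0.05. Among all 11861 genes it was 1762. The part of these markers in the sex differences was not tested.

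The spread over the 12 arrays was divided into day, sex, day by sex, preparation within sex and a rest, as a description. Day held 87.2% of the sum of squares of Ugt2b34, 79.9% for Ugdh, 69.3% for Ugt2b35, 66.8% for Ugt2b1 and 61.9% for Ugt2a3. Sex held 70.5% for Ugt3a2 and 26.9% for Ugt2b37, which also had the highest day by sex share, 17.1%. Only its 2 male day 1 arrays brought Ugt2b37 into the table, which favours these shares, and its other 10 arrays lie under 4.79. Preparation within sex held 29.4% for Ugt2b38 and 28.8% for Ugt2b5, the highest of the 11. Ugt2b36 had 4.85% for day and 48.2% in the rest.

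**Figure D4:**
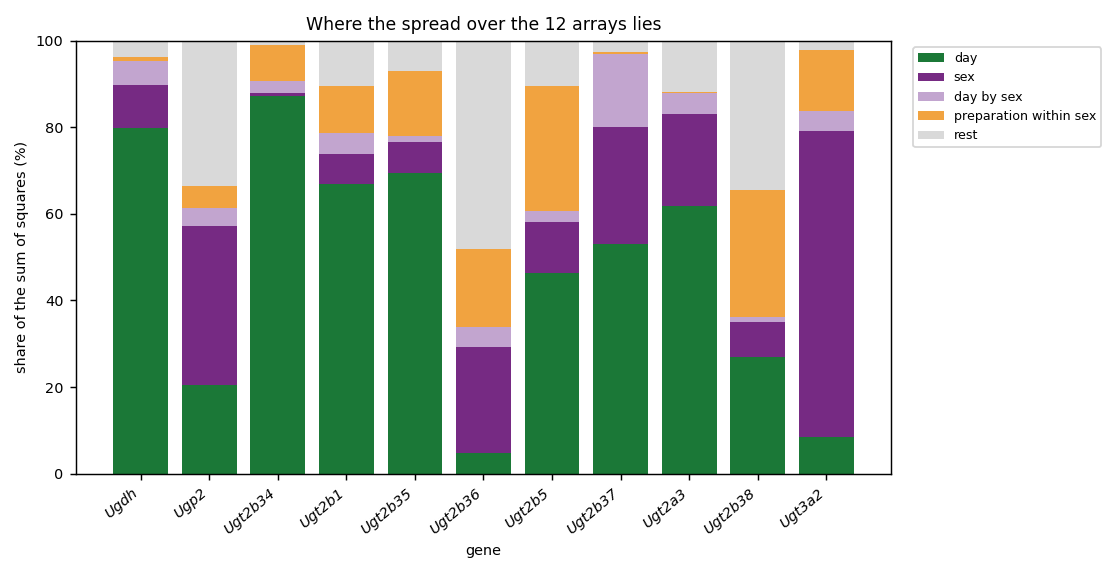
Share of the sum of squares over the 12 arrays (vertical axis, percent) by source for each gene, from sums over the balanced design of 3 days, 2 sexes and 2 preparations per sex. Day is the largest share for Ugdh, Ugt2b34, Ugt2b1, Ugt2b35, Ugt2b5, Ugt2b37 and Ugt2a3, and sex for Ugt3a2 and Ugp2. For Ugt2b37 the selection through its male day 1 arrays favours the shares of day, sex and day by sex.

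Receptors and factors known to act on UGT genes were counted beside them. Between day 14 and day 1, 2 of 18 measured genes rose and 3 fell (19 listed, median -0.06), where 7.59% of all genes were higher and 6.8% lower. In the blocked fit 1 of the risen genes, Rxra, did not pass (adjusted p = 0.064, against 0.0371). Ppara, the fatty acid receptor, rose by 0.49 ± 0.11 (adjusted p = 0.023), Stat5b, which carries the growth hormone signal, fell by 0.36 (SE 0.08, adjusted p = 0.0195), and the liver factor gene Foxa2 fell by 0.34 (SE 0.077, adjusted p = 0.0204). The xenobiotic receptors did not pass: Nr1i2 (PXR) stood at -0.15 ± 0.115 (adjusted p = 0.456), Ahr at -0.19 ± 0.072 (adjusted p = 0.126) and Nr1i3 (CAR) at 0.61 ± 0.20 (adjusted p = 0.0832, or 0.0426 in the blocked fit). Nfe2l2 (NRF2) stood at -0.02 ± 0.10 (adjusted p = 0.944). In the first week Rxra, the partner of several of these receptors, was the only 1 of 18 to pass, at 0.32 ± 0.058 (adjusted p = 0.0216). This count is near the 4.72% of all genes that passed in that week in either direction.

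Among other targets of the same receptors, 1 of 5 measured AhR targets rose and 1 fell at day 14 (7 listed). Between day 14 and day 1, 7.59% of all genes were higher and 6.8% lower. Nqo1, a quinone reductase, rose by 0.61 ± 0.095 (adjusted p = 0.00434), and Tiparp, a feedback gene of AhR, fell by 0.56 (SE 0.065, adjusted p = 0.00134). Of 7 measured CAR and PXR targets (10 listed) 1 rose, the cytochrome gene Cyp2b10, by 0.54 ± 0.11 (adjusted p = 0.0122). This 1 of 7 is near the 14.4% of all genes that passed in either direction. At day 14, 3 of these 7 were lower in males than in females, Cyp3a11 (male minus female -3.79 ± 0.52), Ces2a and Cyp2b10, which are named after their values were seen, where 1.06% of all genes passed in either direction. At days 1 and 7 it was 1 of 7 each, Cyp2b10, against 0.767% and 0.354% of all genes in either direction. Over all days 0 of 7 passed in limma's test, against 0.177%. An unadjusted p under 0.05 was found there in 3 of 7, and in 2344 of all 11861 genes.

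Of 7 measured transporters that carry glucuronides (9 listed), 3 rose and 0 fell between day 14 and day 1 (median 0.21). Of all genes 7.59% were higher and 6.8% lower. Abcc4 and Abcc1, which export conjugates across the basolateral membrane, rose by 1.10 ± 0.14 (adjusted p = 0.00195) and 1.01 ± 0.165 (adjusted p = 0.00537). Abcc3, another basolateral exporter, rose by 0.21 ± 0.059 (adjusted p = 0.0461, or 0.0627 in the blocked fit). Abcc2, which exports glucuronides into bile, stood at 0.22 ± 0.073 (adjusted p = 0.0845). Of the genes named here outside the 11, Abcc4 and Tiparp passed at day 14 against day 1 without any 1 preparation, and the others lost their calls without at least 1.

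The profiles most like those of Ugt2b37, Ugdh and Ugp2 were sought by the root mean square difference over the 12 arrays between log2 levels, each gene centred on its own mean. For Ugt2b37 the 5 nearest of 11509 genes were the carboxylesterase gene Ces3a (0.377), Nrk (0.414), Crybb3 (0.465), the neurotensin gene Nts (0.469) and Rgs20 (0.506), where the median gene lay at 0.821. The profile of Ugt2b37 carries its selection through the male day 1 arrays, and its other 10 arrays lie under 4.79. For Ugdh they were Nfyb (0.0597), the glycolytic gene Pgk1 (0.0635), Keap1, the inhibitor of NRF2 (0.065), Sub1 (0.0656) and Gfra1 (0.0698), with a median of 0.238. For Ugp2 they were Gpatch2 (0.0414), the aminotransferase gene Got2 (0.0593), Hs6st1 (0.0601), Ppp6c (0.0604) and Proc, the gene of protein C (0.063), with a median of 0.199.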

How the data were processed

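Total RNA was labelled with biotin and read on 12 arrays. The log2 values were used as deposited, 1 per probe set, and the submitters' processing notes name RMA, Transcriptome Analysis Console 4.0 and Partek 7.0 without roles. The sources used here give no build, filter or background step. The deposited values cover 13081 probe sets, each reaching 4.79 on at least 1 array. Genes were named from the platform's annotation (a single symbol for 11889 probe sets, several for 0, and none for the other 1192). Where a symbol had several probe sets, as 19 did, the brightest on average was kept, leaving 11861 genes, and 0 columns were left unused. Each member had 1 probe set.

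The 6 groups of sex and day each had a mean in a linear model fitted in R 4.3.3 with limma 3.58.1. Day comparisons average the changes within the sexes, sex differences are male minus female, and sex over all days used the 4 preparation means. Tests were two-sided, with Benjamini-Hochberg adjustment over all genes and a threshold of 0.05. A ± is the SE of the model on a change and the SD on a level. The median SE was 0.0946 for a day comparison and 0.134 for the sexes within a day, limited by the number of arrays. P-values reflect the spread between pools of mice. The fits were run on data simulated with changes of 1 log2 unit at day 14 and no preparation or sex effect. That setting differs from these arrays, so it does not show how the fits do on paired arrays or on smaller changes. Promoter windows were aligned with Biopython 1.88 (match 1, mismatch -1, gaps -3 and -0.5, end gaps -0.1).

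The donor number within a sex marks the same pool at each day, per the labels, so the preparation pairs the arrays. Deviations from the mean of the sex and day correlated over genes at 0.0359 to 0.324 between days of a preparation. The block was an alternative, as were leaving out each preparation, other scalings, a trended and robust spread, a mean of at least 6, all probe sets, and only the days compared. Named genes were every member, from each list up to 3 genes with the largest change that passed with the same sign in 4 preparations, and always Nr1i2, Nr1i3, Ahr, Nfe2l2, Ppara, Slc35d1, Gusb, Abcc2 and Abcc3 where measured. The members and lists were chosen with earlier results of these data known. An item of the lists is not reported here.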

Additional observations from a re-analysis of the deposited data

How the results depend on the processing

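Background correction could not be varied without scanner files, and the number of arrays limits what can be called. The preparation (replicate) block gave 2 members lower in day 7 against day 1 instead of 1, and 1 higher and 1 lower in males over all days instead of 0. The count over all days came from the random block, which treated the arrays of a preparation as nearly independent. Beside these and the blocked values in the report the preparation block changed no other call of a member. A trended and robust spread gave 1 higher and 3 lower in day 7 against day 1, 1 higher and 1 lower in day 14 against day 7, 1 higher and 1 lower in males over all days, and 1 lower in males at day 14. It also called Ugt2b5 in day 14 against day 1. A mean of at least 6, which leaves out Ugt2b37, gave 1 higher in day 7 against day 1, with Ugt2b1 now the 1 lower, 1 lower in males over all days and 0 higher in males at day 1. Apart from what the fewer arrays do, the cause was not tested. Without 1 preparation the counts were 0 to 1 lower in day 7 against day 1, 0 to 1 higher and 0 to 3 lower in day 14 against day 1, and 0 higher in males at day 1. With 1 preparation left out, 40 of the 110 log2 values of the members (11 genes in 10 comparisons) took both signs, and 0 of these were called. For the members and list genes whose value stands in the report the ranges in day 7 against day 1 were Ugp2 -0.0371 to 0.0611, Ugt2b35 -0.000327 to 0.20, Ugt2b36 -0.16 to 0.21, Ugt2b5 -0.0601 to 0.10, Nr1i2 -0.0236 to 0.19, Slc35d1 -0.0812 to 0.0116, Abcc3 -0.0107 to 0.0329. In day 14 against day 7 they were Ugt2b1 -0.35 to 0.065, Ugt2b38 -0.00783 to 0.25, and in day 14 against day 1 Ugt2b36 -0.0639 to 0.29, Nfe2l2 -0.0891 to 0.0566. For male minus female over all days they were Ugt2b34 -0.10 to 0.040, Ugt2b35 -0.00116 to 0.27, Ugt2b38 -0.0286 to 0.25, Ugt2b5 -0.0114 to 0.28, at day 14 Ugt2b37 -0.0499 to 0.42, and for the male change minus the female change in day 7 against day 1 Ugt3a2 -0.0237 to 0.21.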
